A study of Mus musculus with 3 samples.

Results

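Ribosomal RNA (rRNA) and 2 small nucleolar RNAs (snoRNAs) that act in its processing were followed across 3 RNA immunoprecipitation sequencing (RIP-seq) libraries, which hold the RNA recovered with an antibody. The members were chosen by their names in the count tables, with earlier results of these data known. They are LSU-rRNA_Hsa (large-subunit rRNA), SSU-rRNA_Hsa (small-subunit rRNA), U3 and U17. These are 4 of 18484 listed names, nearly all of them repeats, and all 4 had reads in every library. There was 1 library of RNA precipitated with ZBP1 from PS19 mice, 1 of RNA precipitated as ZNA from PS19 mice, and 1 of RNA precipitated as ZNA from wild-type (WT) mice. All 3 were made from the hippocampus, at an age of 9 months, in C57BL/6 mice. The PS19 line is a tauopathy model with a mutant human tau transgene. ZBP1 is a sensor protein that binds left-handed nucleic acid, and ZNA stands here for such nucleic acid. The labels do not say whether a library pools several mice, and an input, a control antibody and a WT library for ZBP1 were not analysed here.

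Each group has 1 library, so the values carry no replicate error and no test of genotype or antibody could be made. Intervals are exact 95% intervals unless named otherwise. They cover counting error only, and reads without molecular identifiers are not independent molecules. Total reads over all names were 1425383 in the PS19 ZBP1, 2918985 in the PS19 ZNA and 3234786 in the WT ZNA library. A single read was worth 0.702, 0.343 and 0.309 CPM in these libraries, where CPM is a count scaled to 1000000 reads over all names. None of the listed names is the symbol of a protein-coding mouse gene in the RefSeq table (0 matches), so the tissue label could not be checked against marker genes. BC1_Mm, the name of a neuronal RNA, had 33, 146 and 77 reads in these libraries.

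Ribosomes are built in the nucleolus from a long precursor transcript that holds the rRNA of both subunits, separated by spacers. U3, a box C/D snoRNA, pairs with the precursor and is needed for the early cleavages that release the small-subunit rRNA. U17, a box H/ACA snoRNA also called E1 or SNORA73, acts in the same branch. Most snoRNAs guide chemical modification of rRNA, whereas U3 and U17 are known for their part in its cleavage. The suffix Hsa marks a human consensus, under which the rRNA of other mammals is also annotated. In RefSeq (assembly GRCm38.p6, used for names only), 5 mouse U3 genes (Rnu3a and Rnu3b1 to Rnu3b4) and 3 U3 pseudogenes (Rnu3b-ps1, Rnu3b-ps2 and Rnu3b-ps3) were found. Of these, Rnu3b1 to Rnu3b4 lie within the span of Tex14, Rnu3b-ps2 within that of Tmem62 and Rnu3b-ps3 within that of Slc24a4. U17 matched 2 genes, Snora73a and Snora73b, which both lie within the host gene Snhg3. A value for U3 or U17 pools all copies that carry the name, and reads of genes and pseudogenes cannot be told apart.

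As shares of the library, the large-subunit and small-subunit rRNA names ran in opposite order. Together they filled 94.8%, 89.4% and 95.5% of the PS19 ZBP1, the PS19 ZNA and the WT ZNA library, so a lower share of one nearly forces a higher share of the other. LSU-rRNA_Hsa had 769184 reads in the PS19 ZBP1, 1157017 in the PS19 ZNA and 1201887 in the WT ZNA library, or 54.0%, 39.6% and 37.2% of all reads. The large-subunit share was therefore highest in the ZBP1 library, and both ZNA libraries lay close together. SSU-rRNA_Hsa had 581725, 1453355 and 1887527 reads in the same order of libraries, or 40.8%, 49.8% and 58.4%. The small-subunit share was lowest in the ZBP1 library and highest in the WT ZNA library. Of the rRNA reads, the large-subunit name took 56.9% (56.85 to 57.02%) in the PS19 ZBP1 library, 44.3% (44.26 to 44.38%) in the PS19 ZNA library and 38.9% (38.85 to 38.96%) in the WT ZNA library. Without an input, the amount of an RNA in the tissue and its recovery in the precipitation cannot be told apart, here or for any other value. In bulk tissue, the same holds for fewer cells of a type and less RNA per cell.

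The number of large-subunit reads over that of small-subunit reads separates the rRNA names from everything else in a library, since it does not depend on the total. The ratio was 1.32 (1.318 to 1.327) in the PS19 ZBP1 library, 0.796 (0.794 to 0.798) in the PS19 ZNA library and 0.637 (0.635 to 0.638) in the WT ZNA library. It was above 1 in the ZBP1 library and below 1 in both ZNA libraries. Between the ZNA libraries, PS19 exceeded WT 1.25-fold (log-scale Woolf interval 1.246 to 1.254). Within PS19, the ZBP1 library exceeded the ZNA library 1.66-fold (1.654 to 1.668). The gap between antibodies was thus wider than the gap between genotypes in these libraries, and with 1 library each neither can be set against replicate spread. These are ratios of reads and are not corrected for the lengths of both rRNAs, so they say nothing of how many molecules of each were present.

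**Figure D1:**
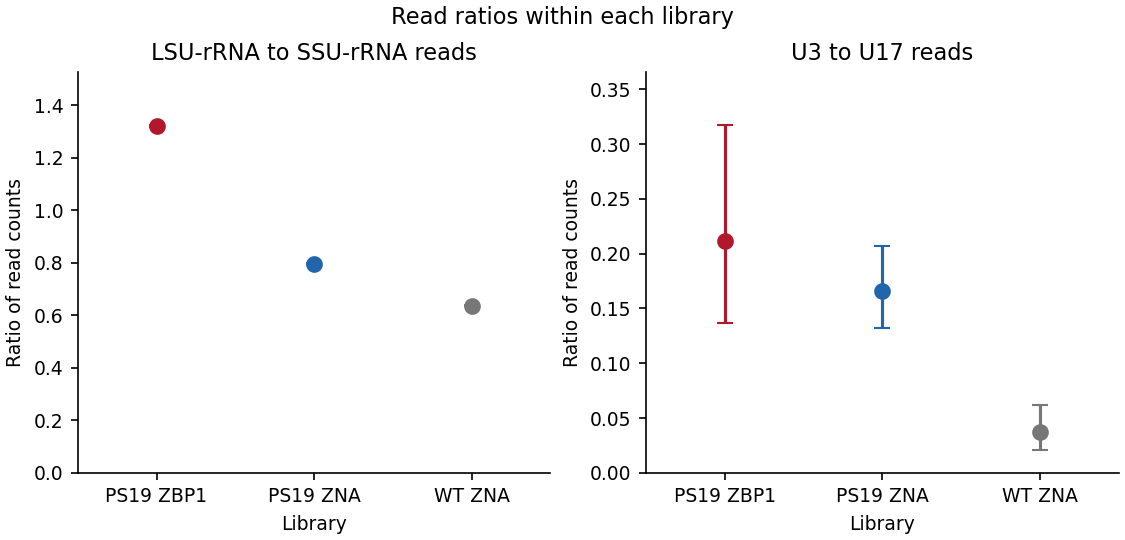
Ratio of LSU-rRNA_Hsa to SSU-rRNA_Hsa reads (left) and of U3 to U17 reads (right) in the 3 libraries, on linear axes from 0, with exact 95% intervals from counting error that are smaller than the points on the left. The rRNA ratio is 1.32, 0.796 and 0.637, and the snoRNA ratio is 0.212 and 0.166 in the PS19 libraries against 0.0371 in the WT ZNA library.

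How each subunit compared between libraries depended on what it was set against. Relative to the library total, LSU-rRNA_Hsa was 1.07-fold higher in the ZNA library of PS19 than in that of WT, but it was 2.21-fold lower per reads outside rRNA. SSU-rRNA_Hsa was 1.17-fold lower per library total and 2.76-fold lower per reads outside rRNA. In the ZBP1 library, LSU-rRNA_Hsa was 1.36-fold higher than in the PS19 ZNA library per library total and 2.75-fold higher per reads outside rRNA. SSU-rRNA_Hsa was 1.22-fold lower per library total and 1.66-fold higher per reads outside rRNA. The direction for LSU-rRNA_Hsa between the ZNA libraries, and for SSU-rRNA_Hsa between the antibodies, thus depended on the denominator; TMM scaling, which centres the names on each other, gave the same turned directions.

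U3 was the member with the largest ratio between the ZNA libraries per library total and per rRNA reads. Per reads outside rRNA and under TMM scaling, SSU-rRNA_Hsa differed by nearly as much, at 2.76-fold and 2.74-fold lower in PS19. U3 was 2.92-fold and 2.94-fold higher on these scales, with intervals of 1.68 to 5.43 and 1.69 to 5.46. Those intervals include the sizes seen for SSU-rRNA_Hsa, so the order of both members is not settled there. U3 had 29 reads in the PS19 ZBP1, 93 in the PS19 ZNA and 15 in the WT ZNA library. These are 20.3 CPM (13.6 to 29.2), 31.9 CPM (25.7 to 39.0) and 4.64 CPM (2.60 to 7.65), respectively. The WT ZNA library was the low one, and its interval did not overlap that of either PS19 library. Per 1000000 rRNA reads, U3 stood at 21.5 (14.4 to 30.8), 35.6 (28.8 to 43.6) and 4.86 (2.72 to 8.01). U3 in the PS19 ZNA library exceeded that in the WT ZNA library 6.87-fold (3.96 to 12.8) per library total and 7.34-fold (4.23 to 13.6) per rRNA reads. With the reads outside rRNA as the denominator the excess was 2.92-fold (1.68 to 5.43), with the same direction. Within PS19, the ZBP1 library was 1.57-fold below the ZNA library (1.02 to 2.47) per library total and 1.66-fold below it (1.08 to 2.61) per rRNA reads. On the reads outside rRNA it was instead 1.29-fold higher, with an interval of 0.821 to 1.98 that includes no difference, and under TMM scaling 1.16-fold higher (0.737 to 1.78). All of these rest on few reads, 15 in the WT ZNA library and 29 in the ZBP1 library.

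U17 was the most abundant snoRNA name by reads. Per library total it differed less than U3 between the ZNA libraries and more than U3 between the antibodies, where the intervals of both overlapped. It had 137 reads in the PS19 ZBP1, 560 in the PS19 ZNA and 404 in the WT ZNA library. Its levels were 96.1 CPM (80.7 to 113.6), 191.8 CPM (176.3 to 208.4) and 124.9 CPM (113.0 to 137.7). The PS19 ZNA library was the high one, and the ZBP1 and WT ZNA intervals overlapped slightly. Per 1000000 rRNA reads, U17 stood at 101.4 (85.1 to 119.9), 214.5 (197.1 to 233.1) and 130.8 (118.3 to 144.2). U17 in the PS19 ZNA library exceeded that in the WT ZNA library 1.54-fold (1.35 to 1.75) per library total and 1.64-fold (1.44 to 1.87) per rRNA reads. The direction turned per reads outside rRNA, where U17 was 1.53-fold lower (1.34 to 1.74) in PS19, and under TMM scaling, where it was 1.52-fold lower. Within PS19, the ZBP1 library was 1.996-fold below the ZNA library (1.65 to 2.42) per library total and 2.12-fold below it (1.75 to 2.57) per rRNA reads. Scaled to the reads outside rRNA, these libraries differed by a ratio of 1.01 (0.835 to 1.22).

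**Figure D2:**
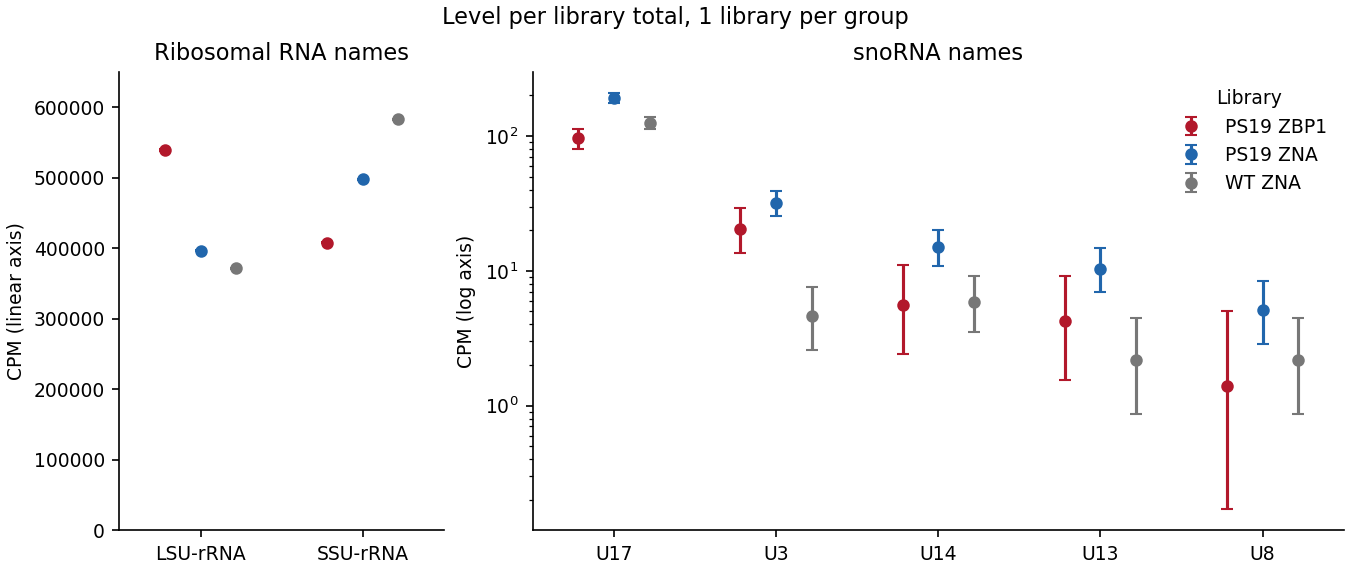
CPM of both rRNA names (left, linear axis from 0) and of the 5 listed snoRNA names (right, log axis) in the 3 libraries, with exact Poisson 95% intervals, which are smaller than the points on the left. LSU-rRNA_Hsa is highest in the PS19 ZBP1 library and SSU-rRNA_Hsa in the WT ZNA library. All 5 snoRNA names are highest in the PS19 ZNA library on this scale (3 of 5 per reads outside rRNA). Of all names compared on this scale, 695 of 713 are higher in PS19 than in WT ZNA, and 62 of 682 with ZBP1 than with ZNA. U3 has its lowest value, 4.64 CPM, in the WT ZNA library.

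The part of the library that is not rRNA moved with these values. Reads outside rRNA were, per rRNA reads, 2.51-fold higher in the ZNA library of PS19 than in that of WT, and 2.14-fold lower with ZBP1 than with ZNA within PS19. Their part in the snoRNA differences was not tested. Against these figures, the 7.34-fold excess of U3 was larger, and the 1.64-fold excess of U17 was smaller. Between the antibodies, U17 at 2.12-fold lower lay near the 2.14-fold of all reads outside rRNA.

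The rRNA name used as the denominator also set the size of the antibody difference, because the subunit ratio differed between the libraries. Within PS19, U17 was 2.72-fold lower (2.25 to 3.30) in the ZBP1 library per large-subunit reads and 1.64-fold lower (1.36 to 1.99) per small-subunit reads. U3 was 2.13-fold lower (1.39 to 3.36) per large-subunit reads and 1.28-fold lower per small-subunit reads, where the interval of 0.838 to 2.02 includes no difference. For the ZNA libraries, U3 was 6.44-fold higher (3.71 to 12.0) in PS19 per large-subunit reads and 8.05-fold higher (4.64 to 15.0) per small-subunit reads. U17 was 1.44-fold (1.26 to 1.64) and 1.80-fold (1.58 to 2.05) higher in PS19 on these denominators. No choice of rRNA name changed a direction for U3 or U17.

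**Figure D3:**
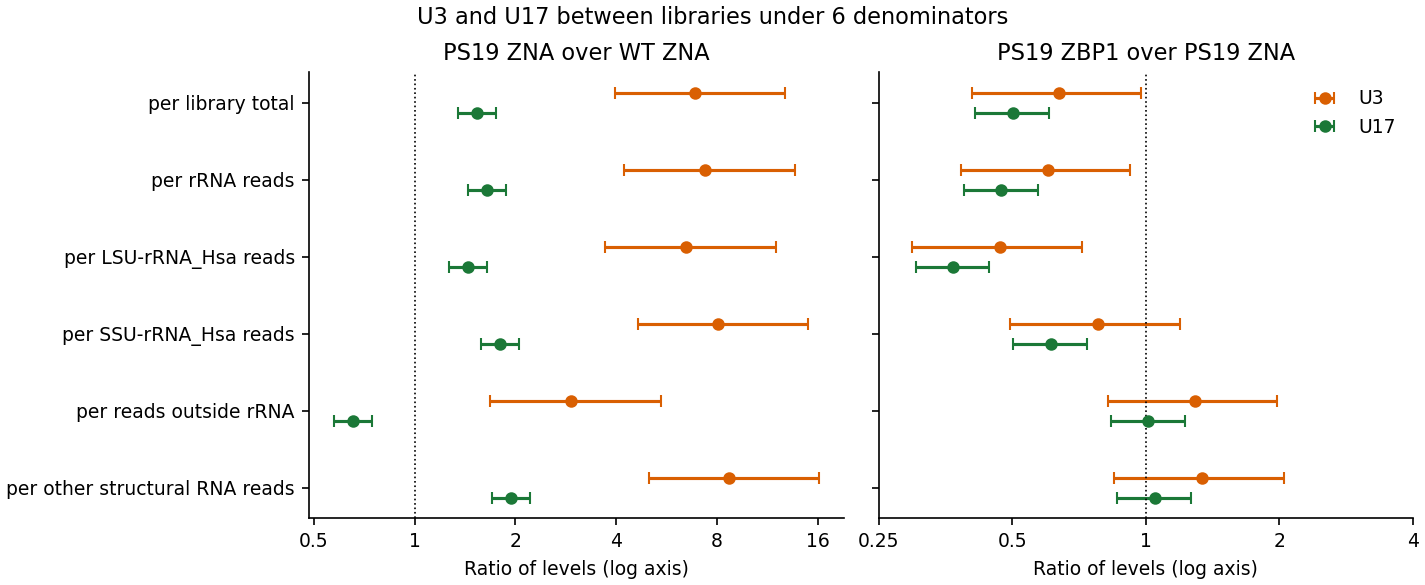
Ratio of U3 (orange) and U17 (green) levels between libraries on a log axis under 6 denominators, with exact conditional 95% intervals; the dotted line marks no difference. U3 lies to the right of the line under every denominator for PS19 over WT ZNA, from 2.92 to 8.70, whereas U17 crosses it per reads outside rRNA, at 0.653.

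The ratio of U3 to U17 reads compares both snoRNAs within a library, free of any total. It was 0.212 (0.137 to 0.318) in the PS19 ZBP1 library, 0.166 (0.132 to 0.207) in the PS19 ZNA library and 0.0371 (0.0206 to 0.0620) in the WT ZNA library. Both PS19 libraries lay above the WT library and their intervals overlapped each other. The PS19 ZNA library exceeded the WT ZNA library 4.47-fold (Woolf interval 2.55 to 7.83). The ZBP1 library exceeded the ZNA library of PS19 1.27-fold, with an interval of 0.807 to 2.01 that includes no difference. The PS19 ZBP1 and WT ZNA libraries differ in both genotype and antibody, and their values are set side by side only.

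Other names of the ribosome pathway with reads were 5S, U8, U13 and U14. No subunit rRNA name other than both members was listed. 5S, the small rRNA of the large subunit that is made apart from the long precursor, had 0, 0 and 1 reads in the PS19 ZBP1, the PS19 ZNA and the WT ZNA library. A count of 0 (3 reads at most) allows up to 2.10 CPM in the first of these and 1.03 CPM in the second, and the exact two-sided intervals end at 2.59 and 1.26 CPM. U14, a box C/D snoRNA that also acts on the small-subunit rRNA, had 8, 44 and 19 reads, or 5.61, 15.1 and 5.87 CPM. U13, a box C/D snoRNA, had 6, 30 and 7 reads, or 4.21, 10.3 and 2.16 CPM. U8, which acts in processing of the large-subunit rRNA, had 2, 15 and 7 reads, or 1.40, 5.14 and 2.16 CPM.

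All 5 listed snoRNA names, both members included, had their highest CPM in the PS19 ZNA library. This was not particular to them. Per library total, 695 of the 713 names compared were higher in PS19 than in WT ZNA. Only 62 of 682 were higher with ZBP1 than with ZNA within PS19. Per reads outside rRNA, where these counts were 424 of 711 and 321 of 680, 3 of the 5 (U8, U13 and U14) were highest in the PS19 ZNA library. Of these, U13 was 4.75-fold (2.04 to 12.8), U14 2.57-fold (1.47 to 4.65) and U8 2.37-fold higher in PS19 than in WT ZNA per library total; the U8 interval of 0.911 to 6.88 includes no difference. Taken per reads outside rRNA, these ratios were 2.02 (0.869 to 5.45), 1.09 (0.624 to 1.98) and 1.01 (0.387 to 2.93), and each interval includes 1. The ratio of U3 to U13 reads was 4.83, 3.10 and 2.14 over the PS19 ZBP1, the PS19 ZNA and the WT ZNA library. Between the ZNA libraries it differed 1.45-fold, with a Woolf interval of 0.539 to 3.88.

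The make-up of the snoRNA reads had overlapping intervals in both PS19 libraries and differed in the WT library. The 5 names together had 182 reads in the PS19 ZBP1, 742 in the PS19 ZNA and 452 in the WT ZNA library. U17 took 75.3% (68.3 to 81.4%), 75.5% (72.2 to 78.5%) and 89.4% (86.2 to 92.1%) of them. U3 took 15.9% (10.9 to 22.1%), 12.5% (10.2 to 15.1%) and 3.32% (1.87 to 5.41%). The WT ZNA library thus had more U17 and less U3 among its snoRNA reads than either PS19 library, beyond counting error. Low standing against U17 in the WT ZNA library was not particular to U3. The ratio of U13 to U17 reads was 0.0438, 0.0536 and 0.0173 in the same order of libraries. Between the ZNA libraries, PS19 exceeded WT 3.09-fold (Woolf interval 1.34 to 7.11) in this ratio, on 7 U13 reads in WT. Of the reads outside rRNA, the 5 names made up 0.244% (0.210 to 0.283%), 0.240% (0.223 to 0.258%) and 0.311% (0.283 to 0.341%).

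The members were then set beside all names, on the log2 ratio of CPM plus a pseudocount of 1, a scale that shrinks differences of names with few reads. Names entered if they averaged 1 CPM or more over both libraries and had 20 or more reads in sum, and all 4 members passed in both comparisons. For the ZNA libraries per library total, 1 of 4 members (U3) was at least 2-fold higher in PS19, against 74.3% of the 713 names compared. None of the members was at least 2-fold lower (0 of 4), against 0.421% of the names. U3 had a log2 ratio of 2.54 and ranked 4 from the highest. U17 had 0.62, below the median of 1.24 over all names, and ranked 74 from the lowest. LSU-rRNA_Hsa had 0.09 and ranked 19 from the lowest, and SSU-rRNA_Hsa had -0.23 and ranked 10 from the lowest. Under TMM scaling, 1 of 4 members (U3) was at least 2-fold higher, against 3.51% of the names, and 2 of 4 (both rRNA names) were at least 2-fold lower, against 2.66%.

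With scaling to the reads outside rRNA, where both rRNA names drop out, 711 names were compared and the median over all of them was 0.07. U3 was then at 1.42 and ranked 11 from the highest, and 3.52% of the names were at least 2-fold higher in PS19. U17 was at -0.61 and ranked 53 from the lowest, short of the 2-fold limit that 2.39% of names passed downward. U3 therefore stayed near the upper end of the names on both scales, whereas U17 lay in the lower part on both.

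Between the antibodies within PS19, LSU-rRNA_Hsa stood near the upper end of the names, and both snoRNAs lay within their bulk. Per library total, 0 of 4 members were at least 2-fold higher with ZBP1 than with ZNA and 0 of 4 at least 2-fold lower, against 0.293% and 50.1% of 682 names. The log2 ratio was 0.45 for LSU-rRNA_Hsa, -0.29 for SSU-rRNA_Hsa, -0.62 for U3 and -0.99 for U17, and the median over all names was -1.002. LSU-rRNA_Hsa ranked 21 and SSU-rRNA_Hsa 127 from the highest of the 682. Under TMM scaling, 1 of 4 members (LSU-rRNA_Hsa) was at least 2-fold higher, against 5.28% of the names, and 0 of 4 were at least 2-fold lower, against 11.6%. Per rRNA reads, U17 at -1.07 passed the 2-fold limit, as did 54.8% of the names. Against the reads outside rRNA, U3 was at 0.36 and U17 at 0.02, beside a median of -0.05, and 8.09% of 680 names passed the limit in each direction.

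**Figure D4:**
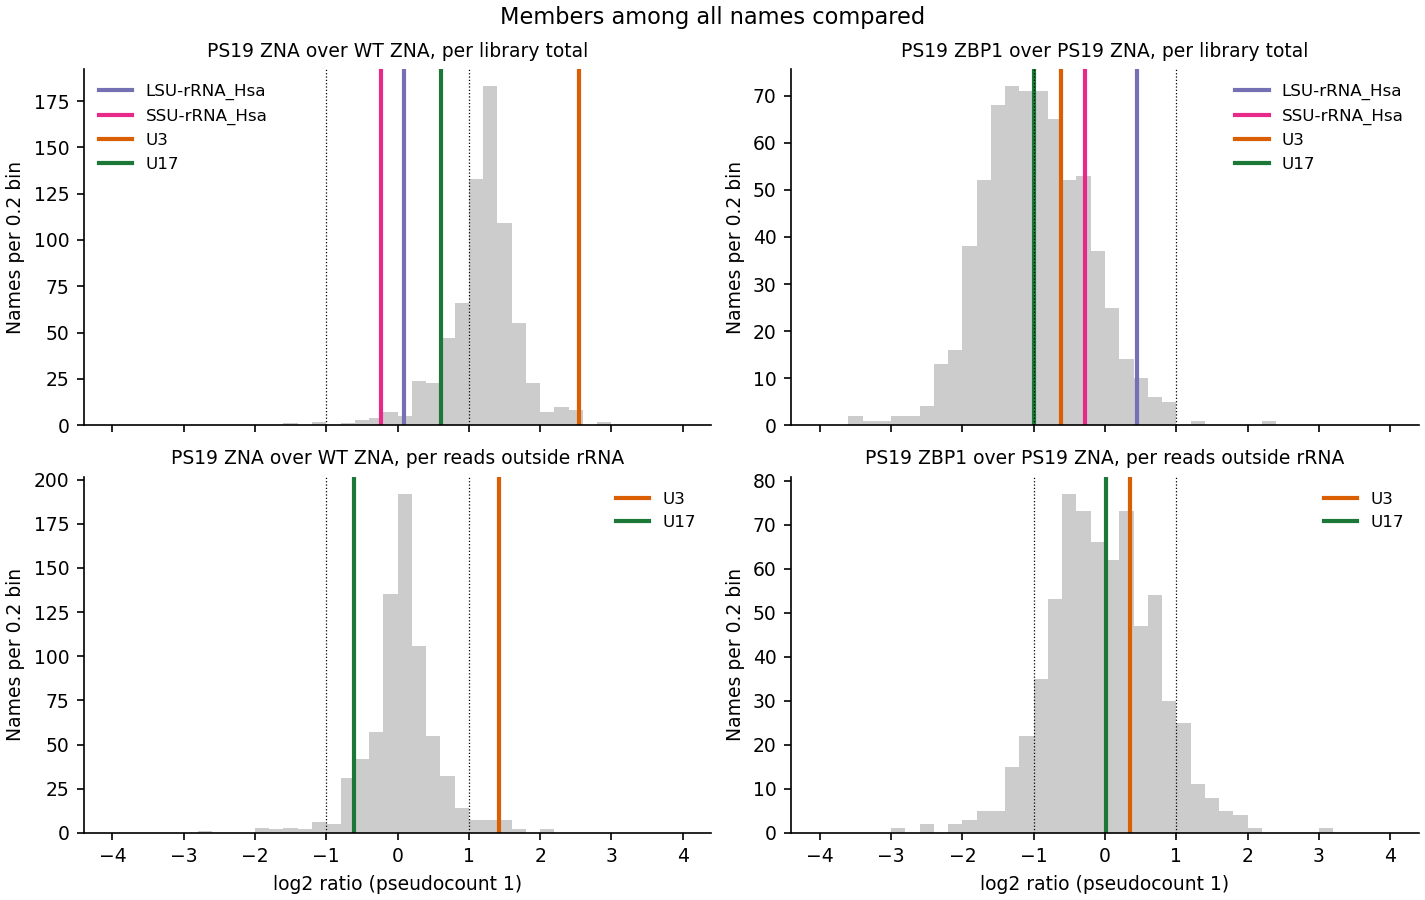
Histograms of the log2 ratio (pseudocount 1) over all names compared, per library total (top) and per reads outside rRNA (bottom), for PS19 over WT ZNA (left) and PS19 ZBP1 over PS19 ZNA (right); coloured lines mark the members and dotted lines the 2-fold limits. U3 lies at the right edge on the left-hand plots, at 2.54 and 1.42, while U17 and U3 lie within the bulk of the names on the right-hand plots.

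Small structural RNAs outside the ribosome pathway gave a second frame. Of 63 listed names (spliceosomal snRNAs, 7SK, 7SL, 4.5S, BC1, Y RNAs and tRNAs), 10 passed the filter in each comparison. The 49 tRNA names among them held 0, 7 and 1 reads in the PS19 ZBP1, the PS19 ZNA and the WT ZNA library. Between the ZNA libraries, 2 of these 10 were at least 2-fold higher and 1 was at least 2-fold lower in PS19 per library total. Of all names compared, 74.3% and 0.421% were. The median log2 ratio of the 10 was 0.09 beside 1.24 over all names. The higher ones were 4.5SRNA (2.46) and BC1_Mm (1.04), and the lower one was HY3 (-1.43), a Y RNA. U1, U2, 7SK and HY1 lay between -0.76 and -0.21, and U4, U5 and 7SLRNA between 0.40 and 0.80. Per reads outside rRNA, 1 of the 10 was at least 2-fold higher and 5 were at least 2-fold lower, against 3.52% and 2.39% of names. The median of the 10 was then -1.12, and BC1_Mm was at -0.16. Between the antibodies, 7 of 10 were past the 2-fold limit downward with ZBP1 and 0 upward, against 50.1% and 0.293% of names. Their median was -1.79 beside -1.002 over all names. U1 (-0.14), U4 (0.16) and 4.5SRNA (-0.20) were the 3 that did not pass. Per reads outside rRNA, 3 of the 10 passed downward and 1 upward, against 8.09% of names in each direction. Per reads of all 63 names, U17 was 1.94-fold higher (1.71 to 2.22) in the ZNA library of PS19 than of WT, and U3 8.70-fold higher (5.01 to 16.2). This denominator was mostly U1 and 7SK, both lower in PS19 than in WT ZNA per library total. They held 2823 and 3542 of its 7779 reads in the PS19 ZNA library, and 4436 and 4556 of 10911 in the WT ZNA library. Between the antibodies, the same denominator gave 1.05 (0.863 to 1.27) for U17 and 1.34 (0.849 to 2.05) for U3, and both intervals include 1.

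The names whose profile over the 3 libraries came closest to each snoRNA were also listed. Likeness was the distance between log2(CPM + 1) profiles, each centred on its own mean, among the 413 names with at least 100 reads in all. Nearest to U3 was 4.5SRNA, a small rodent RNA, at a distance of 0.31, with 60, 142 and 26 reads in the PS19 ZBP1, the PS19 ZNA and the WT ZNA library. RLTR1B-int, an internal retroviral name, followed at 0.53 and Charlie8, a DNA transposon name, at 0.56. Nearest to U17 were MLTR31FA_MM at 0.13, L2d at 0.13 and L1ME4b at 0.15, with 18 to 21, 72 to 84 and 47 to 54 reads in these libraries. With 3 points per profile, all sharing the same library totals, such likeness is a description only.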

How the data were processed

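The deposited files hold raw read counts for each name, as their headers and whole-number values show. The submitters' processing notes list Trim Galore 0.6.5, STAR 2.5.3a, featureCounts 2.0.4 and the mm39 build. The repeat annotation, the strand setting, the removal of rRNA and the handling of multi-mapping reads are not given in the sources used here. That last choice can set the level of multi-copy names such as rRNA and U3. All of them could set the large- to small-subunit read ratio and the rRNA share of a library. Groups came from the sample titles. No summary line or blank name was present.

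CPM, shares, ratios and log2 ratios were computed from the deposited counts with Python 3.11.15, numpy 2.4.6, pandas 2.3.3 and scipy 1.17.1. Intervals are exact Poisson for levels, Clopper-Pearson for shares and within-library ratios, conditional for ratios between libraries and Woolf for ratios of ratios. TMM factors came from edgeR 4.0.16 (R 4.3.3), whose quasi-likelihood test could not be fitted with 1 library per group. Log2 ratios under other denominators were kept at the level of CPM, so that the pseudocount weighed the same. Some of the ratios and intervals were also computed on simulated data, and no result of that check is given here. Simulated counts cannot show the effect of duplicate reads or the spread between real libraries. No conclusion on the accuracy of the intervals is therefore drawn from them.

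The 4 members are always named. Listed rRNA, snoRNA and structural RNA names are named at 20 or more reads in all (5S was added after its values were seen), together with the 3 nearest profiles of U3 and of U17. Members and lists were chosen with earlier results of these data known. Alternatives were pseudocounts of 0.1 and 5, other filters, limits of 1.5-fold and 4-fold, and other denominators.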

Additional observations from a re-analysis of the deposited data

How the results depend on the processing

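Ratios are given as the first library over the second. Per reads outside rRNA and under TMM scaling, the PS19 over WT ZNA ratio was 0.453 and 0.456 for LSU-rRNA_Hsa (1.07 per library total), 0.363 and 0.365 for SSU-rRNA_Hsa (0.853), 2.92 and 2.94 for U3 (6.87) and 0.653 and 0.657 for U17 (1.54). LSU-rRNA_Hsa and U17 changed direction, and their log2 ratios became -1.14 and -1.13, and -0.61 and -0.60. Under the same settings the PS19 ZBP1 over ZNA ratio was 2.75 and 2.47 for LSU-rRNA_Hsa (1.36), 1.66 and 1.49 for SSU-rRNA_Hsa (0.820), 1.29 and 1.16 for U3 (0.639) and 1.01 and 0.910 for U17 (0.501). SSU-rRNA_Hsa (log2 0.73 and 0.57) changed direction. U3 (0.36 and 0.21) also went above 0, as did U17 per reads outside rRNA (log2 0.0196), but with intervals that include no difference. As ratios, these were 0.821 to 1.98 and 0.737 to 1.78 for U3, and 0.835 to 1.22 for U17. For PS19 over WT, the names compared had a median log2 of 1.24 per library total, 0.07 per reads outside rRNA and 0.08 under TMM. For ZBP1 over ZNA these medians were -1.002, -0.05 and -0.20, so part of the shift remained under TMM scaling. The ratio of reads outside rRNA per library total was 2.35 for PS19 over WT and 0.494 for ZBP1 over ZNA. Each ratio per reads outside rRNA is the ratio per library total divided by that figure. What set the share of reads outside rRNA was not tested. Per rRNA reads, LSU-rRNA_Hsa and SSU-rRNA_Hsa moved to 1.14 and 0.911 for PS19 over WT, and to 1.28 and 0.773 for ZBP1 over ZNA. A pseudocount of 5 moved the PS19 over WT log2 ratio of U3 from 2.54 to 1.94.

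Per other structural RNA reads, the ZBP1 over ZNA ratio went above 1 for U3 (1.34, from 0.603 per rRNA reads) and U17 (1.05, from 0.473). Both intervals, 0.849 to 2.05 and 0.863 to 1.27, include 1. On the same denominator U17 was 1.94 for PS19 over WT. U17 was 1.44 per large-subunit reads for PS19 over WT, and 0.368 and 0.611 per large-subunit and small-subunit reads for ZBP1 over ZNA.

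For PS19 over WT ZNA, names at least 2-fold higher and lower went from 530 and 3 to 25 and 19 under TMM scaling and 25 and 17 per reads outside rRNA. At 4-fold they were 27 and 0. The lower names were 1 per rRNA reads, 1 with a pseudocount of 5, 14 without a filter and 1 at a mean of at least 10 CPM. For ZBP1 over ZNA, the higher and lower names went from 2 and 342 to 36 and 79 under TMM scaling, 55 and 55 per reads outside rRNA and 1 and 41 at 4-fold. The higher names were 1 with a pseudocount of 5, 34 without a filter, 0 at a mean of at least 10 CPM and 14 at 1.5-fold. The cause was not tested.

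Other subunit rRNA names could not be added to the ratio, since none was listed. Leaving out a library was not possible with 1 per group. No paired analysis was possible because each group has 1 library. Among the 4 members depth limits U3 most, on 15 to 93 reads, and U8, U13 and U14 have fewer still.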
